A study of Mus musculus with 2 samples.

Results

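The Mir26 genes are 3 microRNA (miRNA) genes, Mir26a-1, Mir26a-2 and Mir26b, that lie in introns of the Ctdsp phosphatase genes. They are 3 of 2202 annotated miRNA genes counted here, and were found by their GENCODE M21 gene names. They were chosen by measured values too: the Mir26a loci had been seen to go opposite ways between the libraries, so the differences between the libraries are given as a description, with no test. Small RNA was sequenced from hippocampus tissue (labelled as a layer of hippocampus) of male B6CASTF1/J mice at 25 days of age, an F1 hybrid with a C57BL/6J and a CAST/EiJ parent. There are 2 libraries of 1 group, biological replicates 1 and 2, with no treatment, mutant or second tissue. They have separate biosample entries and a donor entry in common, so their spread may be partly technical.

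A miRNA gene is transcribed as part of a longer RNA, from which a hairpin precursor is cut and then trimmed to a mature miRNA from its 5′ arm (5p) or its 3′ arm (3p). A mature miRNA finds messenger RNAs mainly through its seed, bases 2 to 8, and miRNAs with 1 seed are grouped as a family. The hosts Ctdsp1, Ctdsp2 and Ctdspl encode small phosphatases that act on the tail of RNA polymerase II. They work with the repressor REST, which silences neuronal genes outside neurons, and in zebrafish miR-26b represses ctdsp2, the gene that carries it. A known target of miR-26a in mice is Ezh2, a histone methyltransferase gene.

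The mature sequences are shown because they determine which reads can be told apart between the genes. They come from RefSeq (GRCm38.p6, a patch release of the assembly named mm10), where all 3 genes were matched. Capitals mark the seed, and U stands for uracil.
miR-26a-5p (from both Mir26a-1 and Mir26a-2): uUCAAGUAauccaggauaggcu
miR-26b-5p: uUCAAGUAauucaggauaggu
miR-26a-1-3p: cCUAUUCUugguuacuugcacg
miR-26a-2-3p: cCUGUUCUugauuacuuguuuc
miR-26b-3p: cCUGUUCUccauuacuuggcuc

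The 5p arms of the 3 genes shared 1 seed, UCAAGUA, and no other mouse miRNA among the 1679 mature names in RefSeq carried it. Mir26a-1 and Mir26a-2 gave the same miR-26a-5p of 22 bases. Against it, miR-26b-5p, of 21 bases, differed by C11U and C21U, with positions counted from 1 at the 5′ end and the miR-26a-5p base first. The 3p arms did not all share a seed. miR-26a-2-3p and miR-26b-3p carried CUGUUCU, whereas miR-26a-1-3p carried CUAUUCU. The change A4G, from miR-26a-1-3p to miR-26a-2-3p, lies within that seed. In all, miR-26a-1-3p and miR-26a-2-3p differed at 6 of 22 positions. The seed CUGUUCU also occurred in miR-6932-3p and miR-7039-3p. Their genes had 0 and 2 counts (Mir6932) and 7 and 10 counts (Mir7039) in replicates 1 and 2.

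The whole precursors show where the Mir26a loci are identical. In each line, capitals mark the longest stretch shared with another Mir26 gene, read from RefSeq on the plus strand of mm10.
Mir26a-1, chr9:119031796-119031885: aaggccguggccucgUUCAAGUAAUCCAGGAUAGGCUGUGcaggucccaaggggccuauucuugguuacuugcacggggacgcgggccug
Mir26a-2, chr10:126995530-126995613: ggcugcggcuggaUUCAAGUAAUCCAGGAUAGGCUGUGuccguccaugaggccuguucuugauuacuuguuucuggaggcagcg
Mir26b, chr1:74394310-74394394: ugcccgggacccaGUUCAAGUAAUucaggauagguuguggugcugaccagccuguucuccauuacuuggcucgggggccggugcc

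The shared stretch of Mir26a-1 and Mir26a-2 was 25 bases long. It began at the first base of the 5p arm and ran 3 bases past its end. A read that starts there must therefore be at least 26 bases long to belong to 1 of these loci only, and the libraries held RNA under 30 bases per the labels. The 3p arms, which lie outside this stretch, differ between the loci at the 6 positions counted above. Mir26b shared at most 11 bases with either. Every 22-base window of each precursor was looked for, on both strands, in the precursors of all 2202 miRNA genes. In Mir26a-1, 65 of 69 windows were found nowhere else, in Mir26a-2 59 of 63, and in Mir26b all 64 of 64. The 4 shared windows of each Mir26a gene were those that start at or just after the first base of the 5p arm, and each stood in the other Mir26a gene. miR-26a-5p itself was held by 2 precursors, and each of the other 4 mature sequences by 1. None of the 5 stood in a spliced GENCODE transcript of another kind. A scan of the whole genome was not part of this comparison, and the CAST/EiJ sequence was not analysed here.

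**Figure D1:**
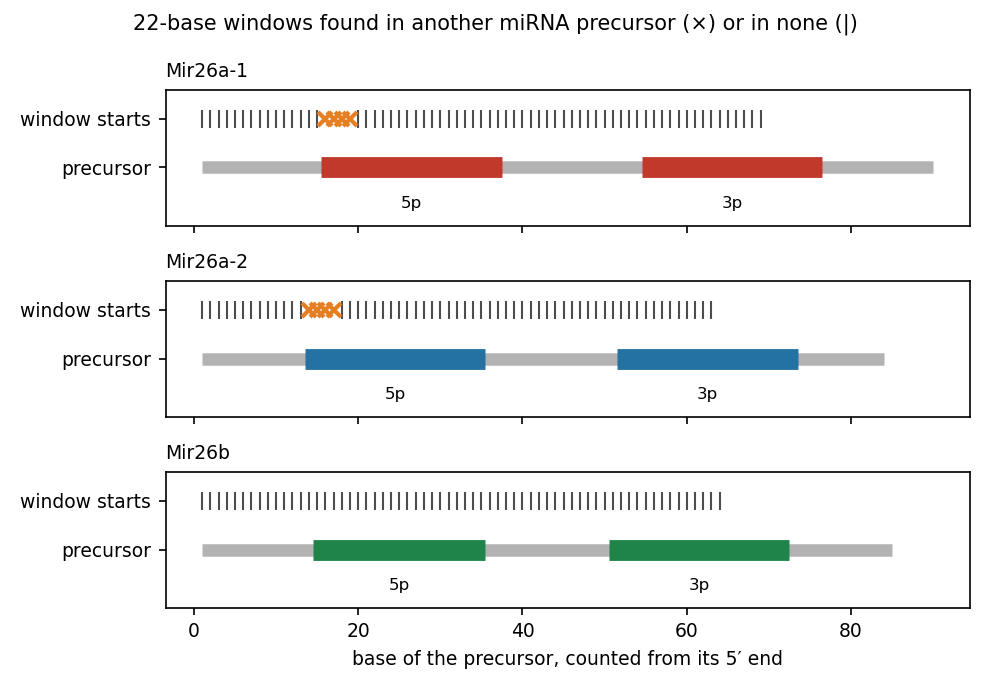
The precursor of each Mir26 gene is drawn from its 5′ end in bases, with the mature arms as thick bars. Above it, each mark is the start of a 22-base window, a cross where the window also stands in another miRNA precursor and a stroke where it does not. The 4 crosses of Mir26a-1 and the 4 of Mir26a-2 lie at the start of the 5p arm, and Mir26b has none.

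The deposited tables keep reads aligned to several places in a row of their own. That row held 6059074 reads in replicate 1 and 6908203 in replicate 2, which were 43.6% and 43.2% of all reads. It is not divided by gene, so reads of miR-26a-5p within it cannot be told apart from those of other repeated miRNAs. A count for Mir26a-1 or Mir26a-2 is thus a count of reads assigned to that locus alone, and is not the level of miR-26a. The tables also do not divide a gene's reads between its 5p and 3p arms.

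The hosts place the 3 genes at a matching point. Mir26a-1 (ENSMUSG00000065513.1) lies in intron 5 of 7 of Ctdspl, Mir26a-2 (ENSMUSG00000065430.1) in intron 5 of 7 of Ctdsp2, and Mir26b (ENSMUSG00000065468.1) in intron 4 of 6 of Ctdsp1. All are on the strand of the host, and no transcript of a host that spans the gene has it in an exon. In each host the exon before the intron is 57 bases long and the exon after it 93 bases, and 2 introns follow. The introns themselves differ in length, at 3283 bases in Ctdspl, 1946 in Ctdsp2 and 564 in Ctdsp1. Mir26a-2 and Mir26b end 241 and 245 bases before the next exon, and Mir26a-1 ends 1650 bases before it. The hosts span 117546 bases (Ctdspl), 21259 (Ctdsp2) and 5777 (Ctdsp1). Over an end-to-end alignment the precursors of Mir26a-1 and Mir26a-2 were 72.5% identical, those of Mir26a-1 and Mir26b 68.8%, and those of Mir26a-2 and Mir26b 67.4%.

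**Figure D2:**
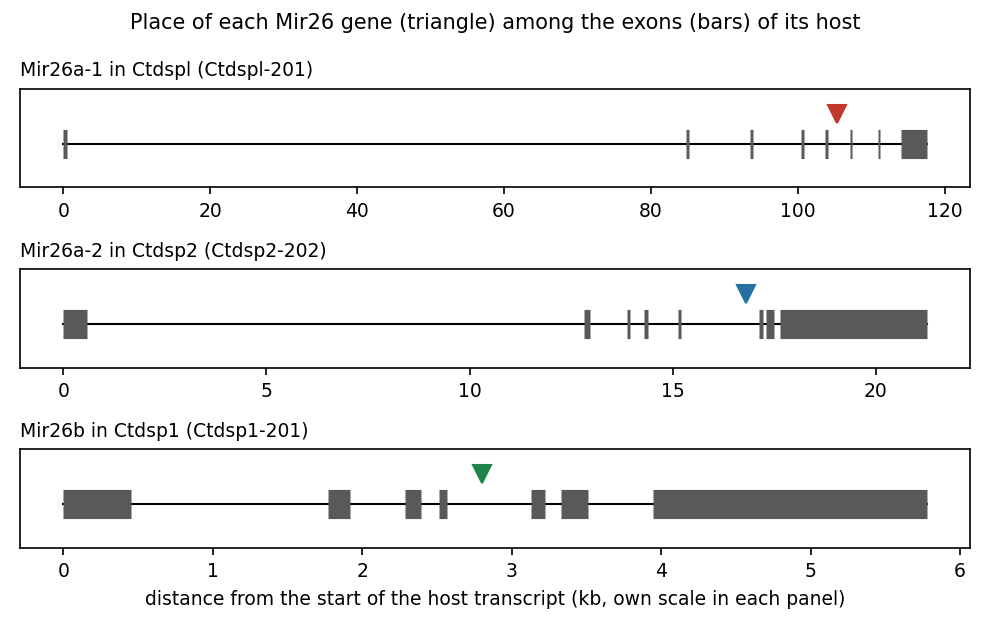
Each panel shows 1 host transcript, with exons as bars (short exons drawn at a minimum width) and the Mir26 gene as a triangle, against the distance from the transcript start in kb, on its own scale. Every triangle lies in the intron that has 2 further introns after it.

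Levels were read as counts per 1000000 counts assigned to miRNA genes (CPM), on the strand of the gene. Replicate 1 had 5183641 such counts and replicate 2 had 5871233, so that a count of 0 would allow up to 0.579 and 0.511 CPM. All 3 members had at least 10 counts in both libraries, as did 445 of the 2202 genes, and all 3 passed the minimum mean count of 100. No member had a count on the opposite strand. Among the markers, Mir132, a miRNA induced by neuronal activity, had 14669 and 19562 CPM in replicates 1 and 2. The muscle markers Mir1a-1 and Mir133a-1 had no count, but they do not check for muscle. Mir1a-1 has a second locus, Mir1a-2, with 1 count in each library. Mir206, a muscle miRNA outside the marker list, had 397 counts in replicate 1 and 832 in replicate 2. The neuronal markers Mir124a-1, Mir124a-2 and Mir124a-3 had between 0 and 16 counts a library and are multi-copy genes too, so they do not check the tissue.

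Mir26b carried most of the counts assigned to the family. It had 30701 counts in replicate 1 and 25724 in replicate 2. These were 5923 CPM (exact binomial 95% interval 5857 to 5989) and 4381 CPM (4328 to 4435), with a mean of 5152 ± 1089.9 CPM (SD, n = 2). The gene ranked 32nd in replicate 1 and 38th in replicate 2 among all miRNA genes. Intervals here are binomial within 1 library, so they cover counting error only. The reads carry no stated molecular identifiers, so copies of 1 molecule would count as separate reads and the intervals may be too narrow. Mir26b took 98.2% of the counts of the 3 genes in replicate 1 and 90.6% in replicate 2.

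Mir26a-1 was low in both libraries and higher in replicate 1. It had 403 counts there and 62 in replicate 2, which were 77.7 CPM (70.3 to 85.7) and 10.6 CPM (8.10 to 13.5). The mean was 44.2 ± 47.5 CPM (SD, n = 2), so the SD exceeded the mean. The 2 intervals did not overlap.

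Mir26a-2 went the opposite way. It had 168 counts in replicate 1 and 2602 in replicate 2, which were 32.4 CPM (27.7 to 37.7) and 443 CPM (426 to 461), and its mean of 238 ± 290.5 CPM (SD, n = 2) again lay below its SD. Within replicate 1, Mir26a-1 was 2.40-fold above Mir26a-2. Within replicate 2, Mir26a-2 was 42.0-fold above Mir26a-1. The order of the Mir26a loci therefore swapped between the libraries, whereas Mir26b was above both in each. Of the counts assigned to either Mir26a locus, Mir26a-1 took 70.6% of 571 in replicate 1 (exact 95% interval 66.7 to 74.3) and 2.33% of 2664 in replicate 2 (1.79 to 2.97).

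Summed, the Mir26a loci had 110.2 CPM in replicate 1 and 454 CPM in replicate 2. Mir26b was 53.8-fold above this sum in replicate 1 and 9.66-fold above it in replicate 2. All 3 genes together had 6033 and 4835 CPM, a mean of 5434 ± 847 CPM (SD, n = 2), or 0.603% and 0.484% of gene-assigned counts. The sum follows Mir26b, and the swap between the Mir26a loci is hardly seen in it. Without the multiply aligned reads, the ratio of Mir26b to the Mir26a loci is not the ratio of miR-26b to miR-26a.

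**Figure D3:**
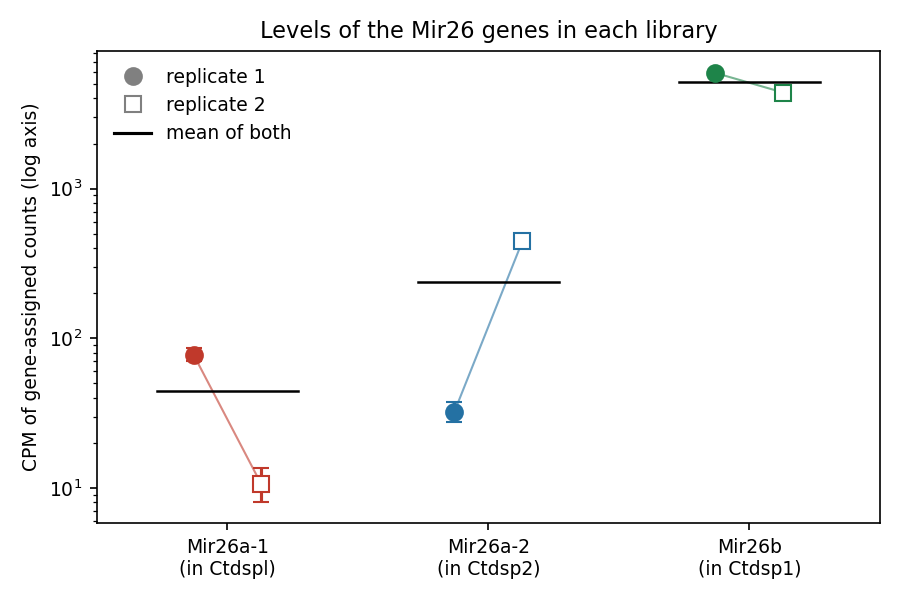
CPM of each Mir26 gene on a log axis, with replicate 1 as filled circles, replicate 2 as open squares and the mean as a black line. Error bars are exact binomial 95% intervals, smaller than the marker where not visible. Mir26a-1 stands at 77.7 CPM in replicate 1 and 10.6 CPM in replicate 2, Mir26a-2 at 32.4 and 443 CPM, and Mir26b at 5923 and 4381 CPM.

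The genes next to each member in mean level were not set apart from it. Mir26b, at rank 37 by mean CPM, lay below Mir126a (5574 ± 389 CPM, SD, n = 2), an endothelial miRNA, and Mir379 (5322 ± 887 CPM), of an imprinted cluster, and above Mir23a (5093 ± 2273 CPM) and Mir100 (4788 ± 1219 CPM). Mir26a-2, at rank 162, stood between Mir20a and Mir339 above and Mir496a and Mir1224 below, and Mir26a-1, at rank 234, between Mir679 and Mir29b-2 above and Mir25 and Mir29b-1 below. In every case the range of the neighbour over the libraries overlapped that of the member. This had to be so, since neighbours were chosen by mean and each mean lay within the member's own range. For the Mir26a loci the rank by mean describes neither library well. Mir26a-1 ranked 201st in replicate 1 and 322nd in replicate 2, and Mir26a-2 ranked 238th and 139th.

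The log2 ratio of replicate 1 over replicate 2, on CPM + 1, was 2.77 for Mir26a-1, -3.73 for Mir26a-2 and 0.43 for Mir26b. Of the 291 genes that averaged 100 counts or more, 34 (11.7%) lay past 2-fold, 8 of them (2.75%) higher in replicate 1 and 26 (8.93%) higher in replicate 2. Of the 3 members, 2 lay past 2-fold, 1 in each direction. The choice of the members used this contrast, so nothing is read from that count. Mir26a-1 had the highest ratio of the 291 genes and Mir26a-2 the lowest, while Mir26b came 117th by size of ratio. The median ratio of the 291 genes was -0.17 and the median absolute ratio 0.34. Scaling by TMM shifted the median ratio by 0.14 and DESeq2 size factors by 0.18, and no member changed direction under either.

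Genes of like level are set beside each member as a description. The 20 genes nearest Mir26a-1 in mean level, at 38.1 to 52.1 CPM, had a median absolute log2 ratio of 0.46. Their widest was mmu-mir-3535, at -2.26. The 20 nearest Mir26a-2, at 195 to 319 CPM, had a median of 0.37, and their widest was Mir145a, a miRNA of smooth muscle, at 1.74. Neither set held a gene as far apart as the member. That was fixed in advance, since Mir26a-2 ranked 1st and Mir26a-1 2nd of the 291 genes by size of ratio. Mir26b was ordinary among its 20 neighbours, at 3483 to 8136 CPM, with a median of 0.32 and 7 of 20 at least as far apart, the widest being Mir22 at -2.46.

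**Figure D4:**
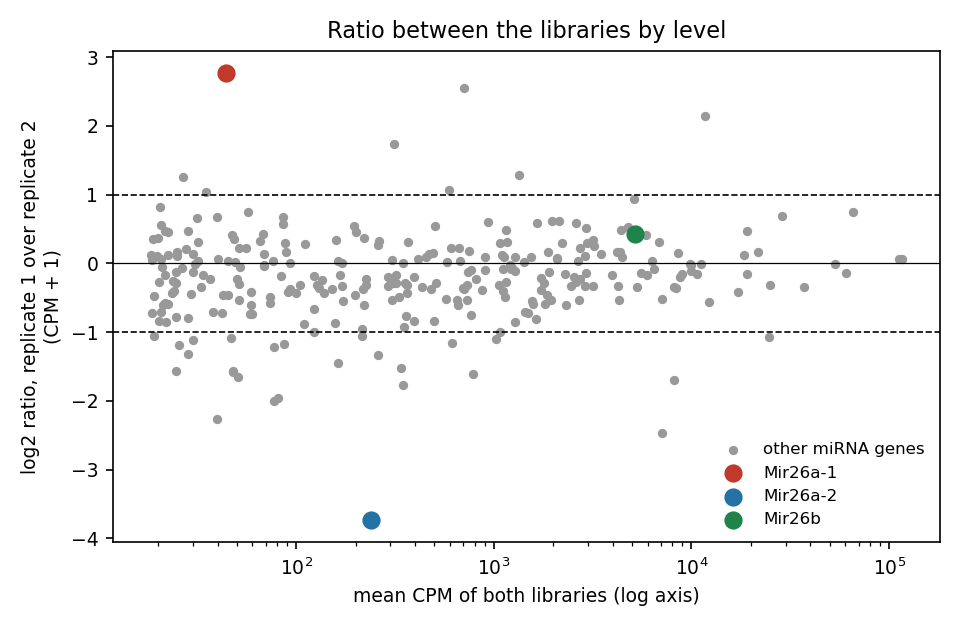
The log2 ratio of replicate 1 over replicate 2 (CPM + 1) of the 291 genes that averaged 100 counts or more, against mean CPM on a log axis, with dashed lines at 2-fold. Mir26a-1 at 2.77 and Mir26a-2 at -3.73 are the highest and lowest points, and Mir26b at 0.43 lies among the other genes.

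By ratio, the genes most like each member were sought among the same 291 genes, and over 2 libraries likeness means only a near value of this ratio. Nearest Mir26a-1 were Mir185 (log2 ratio 2.55), Mir99b (2.14), which lies in a cluster with let-7e and miR-125a genes, and Mir145a (1.74). Nearest Mir26a-2 were Mir22 (-2.46), mmu-mir-3535 (-2.26) and Mir101a (-2.01). The closest of these, Mir185, lay 0.22 from its member and Mir22 lay 1.27 from its own. Mir26b had closer company in Mir669l (0.42), Mir138-1 (0.42), a copy of a miRNA enriched in neurons, and Mir10b (0.45).

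Other miRNAs with several loci give a setting for the Mir26a pair. Names that differ only by a final number gave 21 pairs of loci with a mean count of at least 10 in each locus, 1 pair for each of 21 miRNAs. The Mir26a pair and the other 20 were compared by their longest shared stretch and their mature arms. That stretch was 25 bases in Mir26a and 22 to 28 bases in the others, with a median of 24. In Mir26a and in 19 of the 20 others a mature arm was identical at both loci. The remaining pair had only 1 arm listed at 1 of its loci, so an identical arm could have been missed there. Likeness in the rest of the precursors was not measured for the other pairs. The gap, the absolute difference between the log2 ratios of the loci, was 6.50 for Mir26a and had a median of 0.34 over the others. Next came Mir219a, an oligodendrocyte miRNA, at 1.62, where both loci were higher in replicate 2. That gap rests on few counts, as Mir219a-1 had 9 in replicate 1 and 56 in replicate 2. Mir16 followed at 1.08, Mir218 at 0.71 and Mir135a at 0.64. With a mean count of at least 100 in each locus, the gap of Mir16 was the widest of the others. The 8 other pairs that shared at least 25 bases had gaps of 0.02 to 0.45. The part of shared sequence, or of multiply aligned reads, in the gaps was not tested.

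In 7 of the 21 pairs the ratios of the loci had opposite signs, and in 1, Mir26a, both also lay past 2-fold. The locus with more counts changed between the libraries in 2 pairs. These were Mir26a and Mir29b, the second chosen for naming after its values were seen. The Mir29b loci were near each other in both libraries. Mir29b-1 and Mir29b-2 had 164 and 196 counts in replicate 1, and 311 and 307 in replicate 2. In Mir16 the lower-numbered locus took 67.9% of the counts of the pair in replicate 1 and 81.9% in replicate 2, against 70.6% and 2.33% for Mir26a-1. The Mir26a pair was picked for its swap, so this order is a description and carries no test.

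**Figure D5:**
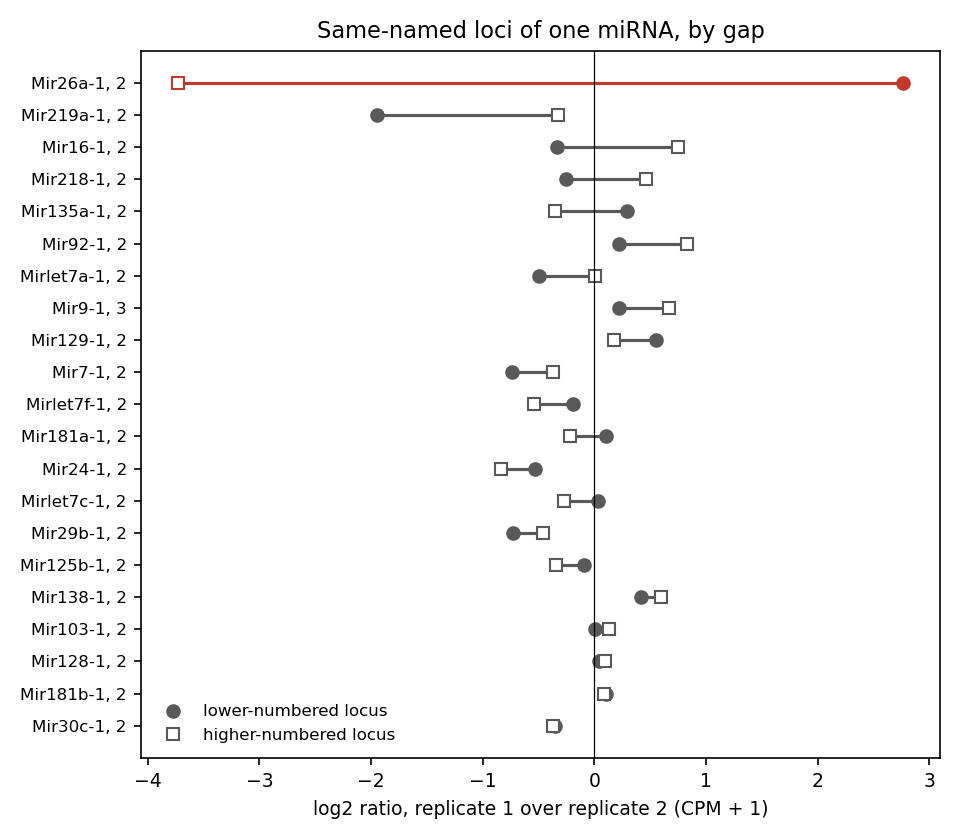
Each row is a miRNA with several loci, with the log2 ratio of replicate 1 over replicate 2 (CPM + 1) of the lower-numbered locus as a circle and of the higher-numbered one as a square, ordered by the gap between them. Mir26a, in red, spans 2.77 to -3.73, a gap of 6.50. The widest of the other 20 gaps is 1.62, for Mir219a, where Mir219a-1 had 9 and 56 counts.

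Lists of genes tied to the hosts, or placed like them, were read beside the members. The REST circuit list held 8 genes of miR-9, miR-124, miR-132 and miR-212, which are repressed by REST or act on its complex. Of these, 3 had a mean count of at least 100 and 0 lay past 2-fold, with a median log2 ratio of 0.13, from -0.42 for Mir132 to 0.67 for Mir9-3. The other 5 were below that minimum, and among them Mir124a-3 had a log2 ratio of -0.87 on 2 and 9 counts and Mir9-2 one of -0.70 on 4 and 11 counts. The Mir9 and Mir124a genes have several loci each, so their counts leave out multiply aligned reads. Such counts do not give the levels of miR-9 or miR-124. Mir212, made from 1 transcript with Mir132, had 493 CPM in replicate 1 and 451 CPM in replicate 2.

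The second list held 9 miRNA genes that lie in introns of paralogous hosts, as the Mir26 genes do: Mir103-1, Mir103-2 and Mir107 in the pantothenate kinase genes, Mir128-1 and Mir128-2, Mir218-1 and Mir218-2 in the Slit genes, and Mir204 and Mir211 in the Trpm genes. Of these, 7 had a mean count of at least 100 and 0 lay past 2-fold, with a median of 0.13, from -0.25 for Mir218-1 to 0.46 for Mir218-2. Below the minimum, Mir103-1 had a log2 ratio of 0.001 and Mir211 had 4.24 CPM in replicate 1 and 0.852 CPM in replicate 2, on 22 and 5 counts, which is past 2-fold. Mir107 was the single-locus relative of the Mir103 genes, as Mir26b is of the Mir26a genes, with 3481 CPM in replicate 1 and 2929 CPM in replicate 2. Mir103-1 had 7.33 and 7.32 CPM, and Mir103-2 had 31.4 and 28.6 CPM. Unlike the Mir26a loci, the Mir103 loci kept their order and differed by a gap of 0.13. Over all 291 genes 11.7% lay past 2-fold, a share that would give less than 1 gene in lists of this size, so the counts of 0 say nothing particular about either list.

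Markers of cell types are given for each library as a description. Summed over each list, the neuron markers had 22771 CPM in replicate 1 and 27351 in replicate 2. Of these, 6 of 9 were detected, with Mir124a-2 at 0 in replicate 1. The neuron list was split. Mir132 was higher in replicate 2 (14669 and 19562 CPM), as were Mir9-2, Mir124a-2 and Mir124a-3 on 0 to 11 counts. Mir128-1 (6381 and 6207 CPM), Mir128-2 (1597 and 1498 CPM), Mir9-1, Mir9-3 and Mir124a-1 were higher in replicate 1. Oligodendrocyte markers had 5248 and 6667 CPM (2 of 2), the endothelial marker 5299.6 and 5849 CPM, vessel wall markers 4013 and 2945 CPM (2 of 2), and choroid plexus markers 661 and 560.0 CPM (1 of 2). Microglia and leukocyte markers had 54.2 and 26.2 CPM (2 of 2), red blood cell markers 21.4 and 33.7 CPM (2 of 2), and the liver marker Mir122 20.4 and 36.1 CPM. Their part in the differences of the Mir26 genes was not tested. In a bulk sample, fewer cells of a type and less RNA per cell cannot be told apart.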

How the data were processed

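Small RNA of 2 libraries was analysed. For each, raw counts of reads for each miRNA gene were deposited by the authors (mm10, GENCODE M21, per the deposited text files) in 3 columns: without regard to strand, on the gene's strand and on the other strand. The sources used here do not give the aligner or the counter. Of 4 rows that name no gene, unmapped reads were 14.1% and 15.5% of reads in replicates 1 and 2, reads on no feature 5.04% and 4.59%, and multiply aligned reads 43.6% and 43.2%. They were left out of library sizes. Gene symbols were matched for all 2202 identifiers.

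Counts on the gene's strand were scaled to CPM of 5183641 and 5871233 counts, and log2 values carry a pseudocount of 1. Ratios are replicate 1 over replicate 2. With 2 libraries of 1 group no test was made. Intervals are exact Clopper-Pearson intervals at 95% (scipy 1.17.1), and a count of 0 was taken to allow 3 counts. TMM (edgeR 4.0.16) and DESeq2 1.42.0 gave alternative scalings in R 4.3.3. Sequences were compared by exact matching against RefSeq and GENCODE sequences, in place of the whole genome that had been planned. The ratio and its 2-fold limit were tried on simulated data that held counting noise only. Those data lack the spread between real libraries, where 11.7% of 291 genes lay past 2-fold, so they do not check the limit against it.

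The members and lists were chosen with earlier results of these data known. Genes named are the members, their 2 neighbours on each side by mean CPM, the 3 nearest by ratio, the 5 widest pairs of loci and list members. Mir29b, Mir206, Mir1a-2, Mir6932 and Mir7039 were named after their values or seeds were seen.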

Additional observations from a re-analysis of the deposited data

Results flagged for a closer look

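Reads aligned to several places were not used in any comparison. They numbered 6059074 in replicate 1 and 6908203 in replicate 2, or 1.17 and 1.18 for each gene-assigned count. Reads of miR-26a-5p that fit both Mir26a loci would stand there, and how many they are was not tested.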

How the results depend on the processing

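Of 58 alternative values, 48 were labelled unchanged, 10 moved and 0 changed direction. Only ratios could be labelled as changing direction, and another pseudocount can never turn the sign of a ratio. The 0 therefore speaks only for ratios under other scalings and in the column that ignores strand. Levels were judged against the library SD and ratios against counting error. Counts of genes and windows were judged by a fold limit, and the gap by the median gap of the other pairs. Leaving out 1 of 2 libraries can never move a level by this rule, so those values among the 48 show nothing. The ratios of Mir26a-1 ranged from 2.41 to 2.93 and those of Mir26a-2 from -3.75 to -3.56. A pseudocount of 5 CPM gave 2.41 for Mir26a-1 and a gap of 5.99 for the Mir26a loci, since it lowers the ratios of low genes. TMM scaling gave ratios of 0.57 for Mir26b and 0.46 for the sum of the 3 genes, and DESeq2 size factors gave 0.61 and 0.49. These scalings shifted the median ratio of the 291 genes by 0.14 and 0.18. With multiply aligned reads added to the total, Mir26b had 2372 CPM, the sum 2501 CPM, Mir26a-1 20.3 CPM against 44.2 and Mir26a-2 109 CPM against 238, since the total was then larger. The last pair fell by over 2-fold and count among the 48 only because their library SD exceeds their mean. Past 2-fold were 34 genes at a mean count of at least 100, 60 of 472 at 10, and 86 of 801 with no filter. Window lengths of 18, 20 and 24 bases left 65 and 59 windows found once in the Mir26a precursors. With 1 shared stretch of 25 bases these numbers cannot change at such lengths, so this is no check. No paired analysis was possible because the libraries form 1 group. With 2 libraries, each alone gives the values printed per library, and no spread can be had without either.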
